A study of Arabidopsis thaliana with 18 samples.

Results

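The genes described here were those whose transcripts were abundant in control shoots and nearly missing from control roots. A probe set, the group of oligonucleotides that reports 1 transcript on the array, was a member when its mean signal over the 3 control shoot arrays was at least 500 and at least 32 times its mean over the 3 control root arrays. Of 22746 probe sets 191 met both thresholds. The 8 named EXPA8, LHCB4.1, LHCB4.2, PORB, PRK, PSAN, RCA and the plastid-encoded ndhJ were left out by name, which left 183 members. The platform annotation gave 1 gene for 65 members, several for 1 and none for 117, and the RefSeq gene table held all 65 named genes. Leaving out by name could act on named probe sets alone, so genes of the left-out families may remain among the unnamed members. The 118 members without a single gene name had control shoot means from 504.5 to 4496 and a median of 1631, and the named ones from 502.2 to 4013 with a median of 1136.

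The study compared control, potassium-starved and caesium-treated plants of Arabidopsis thaliana accession Ws-2 (Wassilewskija), with shoots and roots measured apart on the ATH1 GeneChip, an oligonucleotide array read in 1 colour. There were 6 groups of 3 arrays: control shoots, potassium-starved shoots, caesium-treated shoots and the roots of the same 3 kinds of plant. All groups shared the accession, developmental stage 3.90 and a growth room at 22 °C with 16 h of light, on agar with sucrose and dilute salts, and the labels named no mutation or transgene. The labels state neither the caesium dose, nor how long the treatments lasted, nor how many plants made a sample, nor whether replicates were grown separately. The p-values below therefore compare groups with the scatter among these arrays alone, and that scatter may be technical.

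In leaves, photosystems and an electron transport chain in the thylakoid membrane of the chloroplast turn light into ATP and reducing power, which the Calvin cycle spends on fixing carbon dioxide. Photorespiration recovers carbon lost when Rubisco, the fixing enzyme, takes up oxygen. Most proteins of these systems are encoded in the nucleus, and their genes are active in green tissue. Potassium is the main cation of plant cells and serves enzyme activation, osmotic balance and stomatal movement, and caesium ions enter plants largely by the routes that carry potassium.

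By annotation, 41 of the 65 named members fell into 6 groups of role, and 32 of these 41 belonged to the 4 groups around photosynthesis and plastid metabolism. They held 12 genes of photosystems and thylakoid architecture, 9 of electron transport and redox control, 7 of carbon fixation and photorespiration, 4 of pigments, cofactors and plastid lipids, 5 of defence peptides and a lectin, and 4 of lipid transfer proteins and lipases. The other 24 had varied or unstated roles. AT2G25510 had the highest named signal in control shoots, at 4013 ± 436 (SD, n = 3). It was followed by PSAE-1 (AT4G28750), a photosystem I subunit (3213 ± 141), AT2G26500, the PetM subunit of the cytochrome b6f complex (3171 ± 389.8), the thylakoid curvature protein gene AT4G01150 (2977 ± 339.7) and PSBW (AT2G30570), a small photosystem II subunit (2908 ± 275). ATPC1 (AT4G04640), AT1G09310, AT1G51400, PSBY (AT1G67740), AT2G41090, AT5G38980 and CCL (AT3G26740) completed the 12 brightest, the last at 2178 ± 289.

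The ratio of control shoots to control roots ran from 32.4 to 2045 over the members, with a median of 78.7. These values chose the members and are given with no test. Among named genes the ratio was highest for AT1G23130, of the Bet v 1-type protein family, at 1592, for the legume lectin gene AT5G03350 at 1034 and for PDF1.2 (AT5G44420), a plant defensin, at 651. It was 295 for AT3G48420, 269 for AT2G41090, 218 for AT3G28220, 165 for AT1G09310, 155 for ECS1 (AT1G31580), 152 for CaS (AT5G23060) and 134 for PSAE-1. Just inside the signal threshold lay AT3G48420 (502.2), AT5G07020 (502.5) and AT3G05730 (524.5), and just outside it AOR (465.5), NdhS (461.1) and AT2G43530 (458.1). Just inside the ratio threshold lay AT3G21670 (32.4), AT2G25510 (32.5) and AT5G16030 (37.2), and just outside it LIL3:2 (31.8), AT4G16410 (31.8) and AT5G22580 (30.9). Root ratios rest on low signals, since the control root means of AT1G23130 (0.613) and AT5G03350 (1.11) were far under the 40th percentile of their arrays, which was near 27.

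Replicate 2 of the shoots stood apart in a few members. ECS1, a cell wall-associated protein gene, had signals of 96.2, 5393 and 446 in control, 313, 4199 and 336 in potassium-starved and 89, 4866 and 532 in caesium-treated shoots on replicates 1, 2 and 3. AT1G66100, a thionin gene, had 3.19, 1675 and 20.4 in control, 3.77, 1039 and 6.29 in potassium-starved and 2.58, 611 and 3.61 in caesium-treated shoots. Both were high on replicate 2 of every shoot group and low on replicates 1 and 3. They were the members among 10 probe sets at least 4 times higher on replicate 2 than on both other replicates in all 3 shoot groups, and no probe set met this in roots. Members chosen without replicate 2 of the controls numbered 175, of which 168 were among the 183. The named members lost that way were ECS1, AT1G66100, PDF1.2, PDF1.2b, LIL3:1 and AT2G25510. Of 7 listed root genes 3 were named. PYK10, a root glucosidase, was higher on replicate 2 (1199.7, 903 and 949 on control, potassium-starved and caesium-treated arrays) than on replicates 1 and 3 of the same shoot groups, which ran from 46.9 to 521, and its root signals ran from 1915 to 3501. The expansins EXPA7 and EXPA18 of root hairs lay between 14.0 and 30.1 on the 9 shoot arrays, replicate 2 included, and between 49.4 and 142 on the root arrays. The part of replicate 2 in the results was not tested beyond leaving it out. Without it the named calls under potassium starvation were 1 higher and 28 lower (1 and 35 with it). Between the treatments they were 5 and 1 (8 and 3 with it). Values without replicate 2 are given for only some of the calls lost, so a call printed without them need not hold there.

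**Figure D1:**
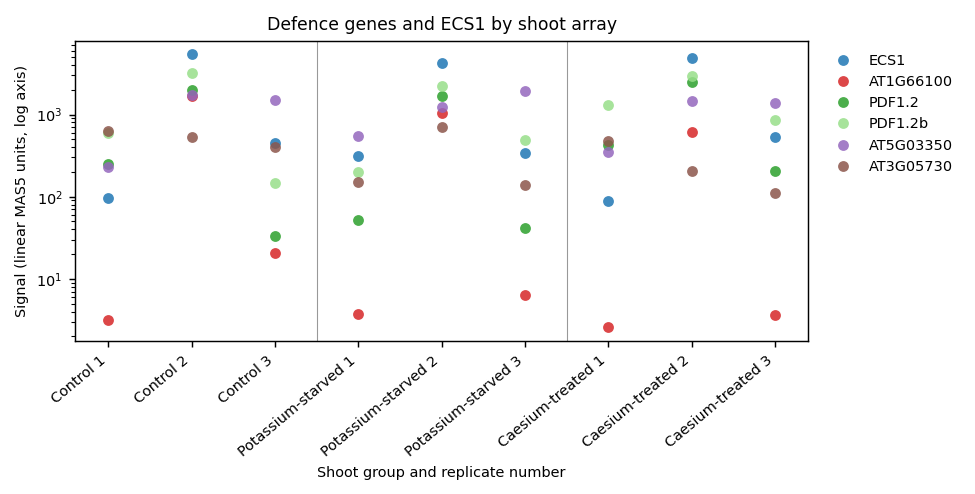
Signals on a log axis of 6 defence or cell wall members on each of the 9 shoot arrays, by group and replicate number. ECS1 (blue) and AT1G66100 (red) lie far higher on replicate 2 than on replicates 1 and 3 in every group, and AT5G03350 (purple) is lowest on replicate 1 of each group.

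The members held less of the total signal in both kinds of treated shoots than in control shoots. They held 9.96, 10.5 and 10.7% of the summed signal on control shoot arrays, 8.31, 7.48 and 8.55% on potassium-starved and 8.38, 8.81 and 8.73% on caesium-treated shoot arrays. Every treated shoot array lay below every control one, and the treated groups overlapped. The control shoot arrays chose the members for high signals, which favours this separation, so it is given with no test. In roots they held 0.132, 0.115 and 0.199% in controls, 0.145, 0.231 and 0.169% under potassium starvation and 0.255, 0.334 and 0.255% under caesium, where all 3 caesium-treated arrays lay above the potassium-starved ones. Because whole shoots were measured, fewer green cells and less RNA per cell cannot be told apart.

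**Figure D2:**
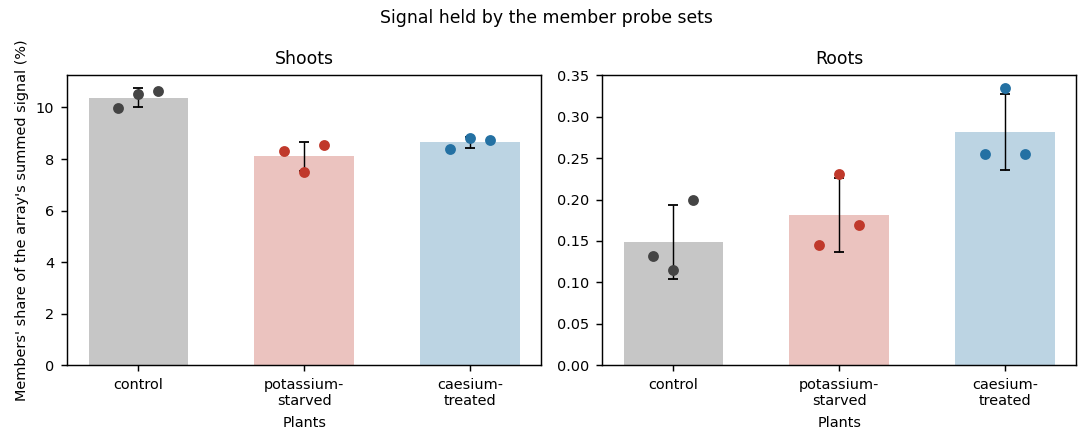
Share of each array's summed signal held by the 183 members, in percent, in shoots (left) and roots (right, on its own axis). Points are arrays, bars the mean of 3 arrays and error bars the SD. Treated shoots lie between 7.48 and 8.81% and control shoots between 9.96 and 10.7%.

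The members were also shoot genes in treated plants. In potassium-starved plants 182 of 183 were called higher in shoots than in roots by limma, where 23.5% of all 16397 tested probe sets were, and in caesium-treated plants 181 were, against 21.3%. The choice of members did not use the treated arrays compared here, although the control arrays enter the estimate of the spread. All 183 members passed the filter through their shoot signals, so the counts are a description. AT1G66100 was not called in either kind of treated plant, and ECS1 was not called in caesium-treated plants. For 180 of 183 members the lowest of the 6 treated shoot signals lay above the highest of the 6 treated root signals, which held for 12.1% of all probe sets. The median ratio of shoots to roots was 42.3 in potassium-starved and 35.2 in caesium-treated plants, and 123 and 106 members still reached 32.

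The log2 differences between potassium-starved and caesium-treated shoots use no control array, although the control shoots enter the estimate of the spread. Named genes with higher signals in caesium-treated shoots were SBPASE (AT3G55800), AT1G74470, LIL3:1 (AT4G17600), AT2G10940, AT5G16030, AT1G23130, AT1G49750 and AT1G21500, and those with lower signals were AT1G65490, AT5G38980 and PSAE-1. By limma, a linear model with variances moderated across probe sets and p-values adjusted over all of them (called below 0.05), 27 of 183 members were higher (14.8% against 18% of all 14665 tested) and 5 were lower (2.73% against 8.84%), and all 183 passed the filter on low signals. Of the 65 named members 8 were higher and 3 lower. The median log2 difference was 0.13 over the members and 0.16 over all tested probe sets. Other probe sets with a control shoot mean of at least 500 were higher in 14.6% and lower in 16.7% of cases, with a median of -0.07. The balance of directions moved with the scaling of the arrays, for the members and for all tested probe sets. After a shift of each array to a common median it was 11 higher and 23 lower, against 1524 and 2331 of all 14665 tested. The median there turned to -0.13 (-0.11 over all). After quantile normalization it was 41 and 1, against 2018 and 1624 of all tested. With the replicate number as a block it was 49 higher and 11 lower, against 25% and 12.4% of all tested, and without replicate 2 it was 13 and 1, against 7.89% and 3.82%, with 11 of the 32 calls kept. Leaving out single arrays gave 9 higher without caesium-treated replicate 1, 10 without caesium-treated replicate 3, 12 without potassium-starved replicate 2 and 18 to 32 without any other. Fitted on only the 6 arrays compared, with no control array, 22 were higher and 4 lower, and 24 of the 32 calls were kept.

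Against control shoots the members lay lower in both treatments. In potassium-starved shoots 84 were lower and 2 higher by limma, against 16.7% lower and 11.4% higher of all tested, with a median log2 difference of -0.54 against -0.14 over all tested. Of the 65 named members 35 were lower and 1 was higher. The total of 86 was 57 without control replicate 1, and 70 after the median shift. Without replicate 2 of all groups 71 were lower and 4 higher, against 11% and 7.93% of all tested. Other probe sets with a control shoot mean of at least 500, 1087 in number, were lower in 23.4% and higher in 12.9% of cases, with a median of -0.04. In caesium-treated shoots 165 of 183 differences were negative, where the median over all tested probe sets was 0.03. However, 0 members were called lower and 1, the unnamed probe set 266385_at, was called higher, against 0.109% and 0.457% of all tested. No member was called without control replicate 1 or 3, without any 1 of the caesium-treated replicates or without replicate 2 of all groups, where 0.00714% of all tested were higher and 0 lower. The median was -0.36 against 0.03 over all tested, and with the replicate block 30 members were lower and 1 higher, against 1.67% and 2.97%. Both comparisons share the control arrays that chose the members for high signals, which by itself favours lower values elsewhere. These counts are therefore a description, and so are the calls and adjusted p-values against control given below for single members. When members were chosen on 2 controls and compared with the remaining one, the medians were -0.49, -0.47 and -0.57 under potassium starvation and -0.32, -0.34 and -0.41 under caesium. Over all tested probe sets the medians were -0.15, -0.12 and -0.17 under potassium starvation and 0.03, 0.05 and 0.02 under caesium. With that single control array, assumed to vary like the other groups, fewer members were called lower under potassium starvation than with all 3 controls.

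**Figure D3:**
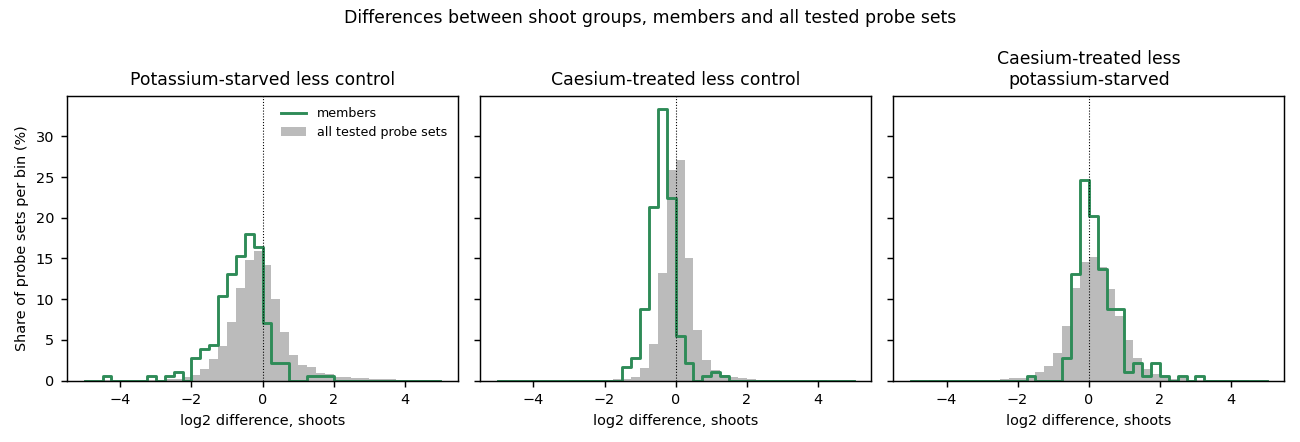
Share of probe sets in bins of 0.25 in log2 difference, in percent, for the 183 members (green line) and all 14665 tested probe sets (grey), in the 3 comparisons of shoots. The members' median lies at -0.54 and -0.36 against control and at 0.13 between the treatments.

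Differences under potassium starvation are described by brightness. Over the 34 members whose geometric mean of the 9 shoot signals was under 500 the median log2 difference of potassium-starved from control shoots was -1.10, with 26 called lower. It was -0.73 for the 54 members from 500 to 1000 (31 lower), -0.61 for the 44 from 1000 to 2000 (25 lower and 2 higher) and -0.13 for the 51 of 2000 and over, of which 2 were lower. Between caesium-treated and potassium-starved shoots the medians in the same order were 0.71, 0.22, 0.22 and -0.10. These bins use the potassium-starved arrays too, so a fall itself moves a member to a dimmer bin. In bins by the caesium-treated arrays (chosen after seeing the data), the medians from dim to bright were -1.04, -0.78, -0.62 and -0.13. These bins held 32, 59, 42 and 50 members, with 23, 33, 26 and 2 called lower, against 16.7% of all tested. The log2 differences from control do not use the caesium-treated arrays, although these arrays enter the estimate of the spread behind the calls. Every member had a control shoot mean of at least 500, however, so each member of the dimmest bin lay below its control mean under caesium. The same control arrays enter the comparison, so both sets of bins are a description. Whether the brightest signals were compressed was not tested.

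Among photosystem and thylakoid genes, 6 of 12 fell under potassium starvation, where 16.7% of all tested probe sets and 45.9% of all 183 members were lower. Whether any role group differed from the other members was not tested. None of the 12 was called under caesium in the fit without the replicate block, where 0.109% of all tested were lower. With the block PSB27 and AT1G51400 were called lower under caesium, as given below. All 12 had negative differences under both treatments, as had 159 of the 183 members under potassium starvation and 165 under caesium. AT5G02160, whose thylakoid protein interacts with the FtsH5 protease, had signals of 1396, 1609 and 1498 in control, 313, 553 and 721 in potassium-starved and 496, 677 and 739.8 in caesium-treated shoots. Every treated signal lay below every control one, with log2 differences of -1.58 ± 0.28 (SE, adjusted p = 0.003) under potassium starvation and -1.25 ± 0.28 (adjusted p = 0.0685) under caesium. PSB27 (AT1G03600), an assembly factor of photosystem II, had signals of 2212, 1948 and 2240.2 in control, 1486, 1265 and 1466 in potassium-starved and 1402, 1304 and 1369 in caesium-treated shoots. The treated groups overlapped each other and not the controls, at -0.60 ± 0.13 (adjusted p = 0.00734) and -0.65 ± 0.13 (adjusted p = 0.0529). AT1G51400, a small photosystem II protein gene, had 2720.3, 2728 and 2418 in control, 1578, 1609 and 1917 in potassium-starved and 1629, 1822 and 1624 in caesium-treated shoots, and its differences were -0.63 and -0.63. Between the treatments PSB27 differed by -0.05 (95% interval -0.33 to 0.23) and AT1G51400 by -0.0046 (-0.29 to 0.28).

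AT1G74730 (RIQ2) and AT5G08050 (RIQ1), which influence grana stacking and the organisation of light-harvesting complexes, fell by 0.93 and 0.62 on the log2 scale under potassium starvation, and differed by -0.70 and -0.71 under caesium without a call. AT3G47070, a soluble thylakoid phosphoprotein gene, fell by 0.78. AT5G07020 (MPH1), which protects photosystem II in strong light, differed by -0.30 under potassium starvation and -0.59 under caesium, neither called. The thylakoid curvature genes AT4G01150 (CURT1A) and AT1G52220 (CURT1C) differed by -0.03 and -0.36 under potassium starvation, and PSBW and PSBY by -0.12 and -0.43, again without a call.

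PSAE-1, which docks ferredoxin at photosystem I, had signals of 3259.8, 3055 and 3324 in control, 3014, 3366 and 3156 in potassium-starved and 2414, 2764 and 2108 in caesium-treated shoots. The caesium-treated arrays lay below all 6 others, while control and potassium-starved arrays overlapped. It was lower in caesium-treated than in potassium-starved shoots by 0.40 on the log2 scale (SE 0.12, adjusted p = 0.039) and differed from control by -0.41 under caesium (adjusted p = 0.151) and -0.02 under potassium starvation (adjusted p = 0.939). Its call was lost under quantile normalization (-0.20) and without any 1 of caesium-treated replicates 1 and 3, potassium-starved replicates 2 and 3 or control replicate 3.

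**Figure D4:**
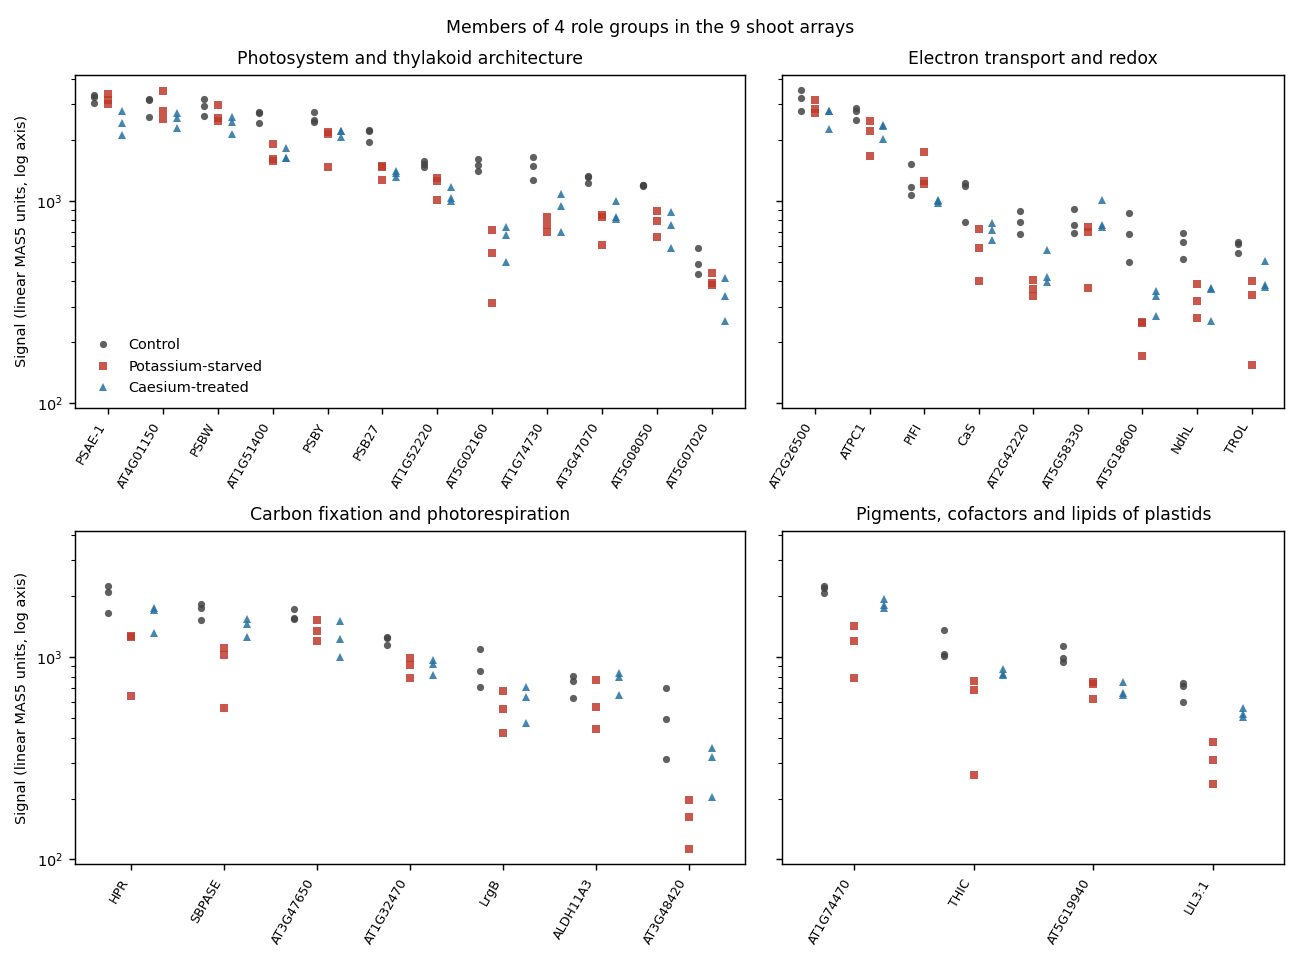
Signals on a log axis of 32 named members of the 4 groups around photosynthesis and plastid metabolism on the 9 shoot arrays, in 4 panels by role, ordered by control mean. Circles are control, squares potassium-starved and triangles caesium-treated arrays. PSAE-1, at the left of the first panel, has its caesium-treated triangles below all other points. For AT5G02160 and AT5G18600 both treated groups lie clear of the control circles, and for AT1G74470 and LIL3:1 the caesium-treated triangles lie between the other groups.

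In electron transport and redox control 5 of 9 genes fell under potassium starvation, against 16.7% of all tested probe sets and 45.9% of all members. In the fit without the replicate block none was called under caesium (0.109% of all tested lower) or between the treatments (18% higher and 8.84% lower). AT5G18600, a glutaredoxin gene, had signals of 867, 687 and 497 in control, 248, 253 and 172 in potassium-starved and 338, 360.0 and 268 in caesium-treated shoots. Its treated signals all lay below the controls, at -1.59 ± 0.24 (adjusted p = 0.0016) and -1.06 ± 0.24 (adjusted p = 0.0754). NdhL (AT1G70760), a subunit of the plastid NADH dehydrogenase-like complex that cycles electrons around photosystem I, had 695, 517 and 623 in control, 321, 264 and 388 in potassium-starved and 365, 254 and 371 in caesium-treated shoots. It fell by 0.92 under potassium starvation, differed by -0.90 under caesium (adjusted p = 0.0863), and its difference between the treatments was 0.02 (95% interval -0.46 to 0.50). TROL (AT4G01050), which tethers the ferredoxin-NADP reductase to the membrane, CaS, a thylakoid calcium-binding protein gene, and the rhodanese-like gene AT2G42220 fell by 1.11, 0.92 and 1.09. AT2G26500, ATPC1, the gamma subunit of the plastid ATP synthase, AT5G58330, an NADP-malate dehydrogenase, and PIFI (AT3G15840), a factor of chlororespiration, were not called, at -0.12, -0.38, -0.44 and 0.16.

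Carbon fixation and photorespiration genes fell in 4 of 7 cases under potassium starvation, against 16.7% of all tested probe sets and 45.9% of all members. Of the 7, 1 was higher under caesium than under potassium starvation, a share near the 18% of all tested. SBPASE, the sedoheptulose-bisphosphatase of the Calvin cycle, had signals of 1836, 1529 and 1738 in control, 1109, 562 and 1025 in potassium-starved and 1541, 1262 and 1461 in caesium-treated shoots. All potassium-starved signals lay below all others, and the caesium-treated ones overlapped the controls. It fell by 0.98 (SE 0.23, adjusted p = 0.0127) under potassium starvation and was 0.72 ± 0.23 (adjusted p = 0.0443) higher under caesium than there, a call lost after the median shift (0.45) and in 6 of 12 fits without 1 array. AT3G48420, a phosphatase that removes an inhibitory by-product of Rubisco (xylulose bisphosphate), had 699, 312 and 495 in control, 198, 113 and 162 in potassium-starved and 323, 203 and 355 in caesium-treated shoots. The potassium-starved arrays lay below all others, and the caesium-treated ones overlapped the controls. It fell by 1.63 (adjusted p = 0.00588), and was 0.89 between the treatments (adjusted p = 0.0673, 0.00346 with the replicate block). HPR (AT1G68010), the hydroxypyruvate reductase of photorespiration, had 2237, 1652 and 2086 in control, 1257, 640.2 and 1277 in potassium-starved and 1741, 1316 and 1709 in caesium-treated shoots, and fell by 0.97. AT1G32470, an H protein of glycine decarboxylase, fell by 0.44. LrgB (AT1G32080), the plastid glycolate and glycerate transporter, lay just outside the threshold at -0.69 (adjusted p = 0.05004). AT3G47650 (BSD2), which helps assemble Rubisco, and ALDH11A3 (AT2G24270), a cytosolic glyceraldehyde-phosphate dehydrogenase, were not called, at -0.25 and -0.33.

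All 4 genes of pigments, cofactors and plastid lipids fell under potassium starvation (16.7% of all tested and 45.9% of all members were lower). Of these genes 2 were higher under caesium than there (18% of all tested). AT1G74470, the geranylgeranyl reductase that makes the phytol tail of chlorophyll, had signals of 2066, 2201 and 2247 in control, 1202, 787 and 1431 in potassium-starved and 1929.9, 1737 and 1804 in caesium-treated shoots. LIL3:1, a light-harvesting-like protein that holds this reductase in the membrane, had 602, 744 and 719 in control, 309.6, 235 and 379 in potassium-starved and 559, 507 and 524 in caesium-treated shoots. In both genes the 3 groups did not overlap at all, with caesium-treated shoots between the other two. AT1G74470 fell by 0.97 (adjusted p = 0.00578) and LIL3:1 by 1.18 (adjusted p = 0.0023) under potassium starvation. Caesium-treated shoots exceeded potassium-starved ones by 0.72 ± 0.19 (adjusted p = 0.0228, lost after the median shift) and 0.81 ± 0.19 (adjusted p = 0.0143). THIC (AT2G29630), of thiamine synthesis, and AT5G19940, of the plastid fibrillin family, fell by 1.13 and 0.54.

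The 4 lipid transfer and lipase genes also fell under potassium starvation, against 16.7% of all tested probe sets and 45.9% of all members. AT2G10940, of the lipid transfer and protease inhibitor type, had signals of 1589.8, 2151 and 2162 in control, 442, 429 and 804 in potassium-starved and 1546, 1178 and 1331 in caesium-treated shoots. Potassium-starved shoots lay far below both other groups, by 1.87 against control (adjusted p = 0.000804), and caesium-treated shoots exceeded them by 1.33 ± 0.24 (adjusted p = 0.00525), a call kept in all 12 fits without 1 array. The GDSL-type lipase genes AT1G29660 and AT1G29670, which lie next to each other on chromosome 1 with no protein-coding gene between, had different profiles. AT1G29660 had 848, 1296 and 1453 in control, 439, 444 and 616 in potassium-starved and 886, 576 and 716 in caesium-treated shoots, and AT1G29670 had 1293, 1172 and 1453 in control, 767, 699.8 and 1030.3 in potassium-starved and 879, 560.2 and 732 in caesium-treated shoots. They fell by 1.24 and 0.66 under potassium starvation, and differed between the treatments by 0.53 (95% interval -0.003 to 1.07) and -0.21 (-0.66 to 0.25), neither called, and whether the 2 genes differ from each other was not tested. AT5G48490, a lipid transfer protein gene similar to DIR1, fell by 1.09 (adjusted p = 0.0488).

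AT1G65490, whose role is not stated here, was the named member that rose under potassium starvation. Its signals were 471, 856 and 982 in control, 2568, 2593 and 2314 in potassium-starved and 753, 685 and 988 in caesium-treated shoots. The potassium-starved arrays lay far above all others, and the caesium-treated arrays overlapped the controls. It rose by 1.76 ± 0.25 (SE, adjusted p = 0.00126), differed by 0.12 under caesium (adjusted p = 0.893) and was lower by 1.64 in caesium-treated than in potassium-starved shoots (adjusted p = 0.00279), calls kept in every fit without 1 array. The unnamed probe set 266385_at, called higher under both treatments, had signals of 760.4, 1409 and 883 in control, 3619, 2872 and 2942 in potassium-starved and 1945, 2873 and 2494 in caesium-treated shoots, or 1.67 and 1.29 (adjusted p = 0.00103 and 0.0437). Every treated signal lay above every control one. It was the member called higher under caesium, and no member was called there after the median shift.

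Other members without a shared role fell under potassium starvation and were higher in caesium-treated than in potassium-starved shoots. AT5G16030 had signals of 1052, 426 and 821 in control, 129, 132 and 162 in potassium-starved and 547, 231 and 415 in caesium-treated shoots. It had the largest fall among named members, 2.35 on the log2 scale (adjusted p = 0.00171), and caesium-treated shoots exceeded potassium-starved ones by 1.42 ± 0.36 (adjusted p = 0.0185). AT1G23130 had 610.3, 1564 and 754 in control, 165, 296 and 499.8 in potassium-starved and 956, 958 and 541 in caesium-treated shoots, with -1.63 and 1.45 (adjusted p = 0.02 and 0.0341), and both calls were lost without replicate 2 of all groups (adjusted p = 0.124 and 0.127). AT1G21500 and AT1G49750, the latter a leucine-rich repeat protein gene, fell by 1.56 and 0.99 and were higher under caesium than there by 0.79 and 0.89. The largest difference under potassium starvation was that of the unnamed 253971_at, chosen here after its values were seen, at -4.33 against control and 3.13 between the treatments.

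**Figure D5:**
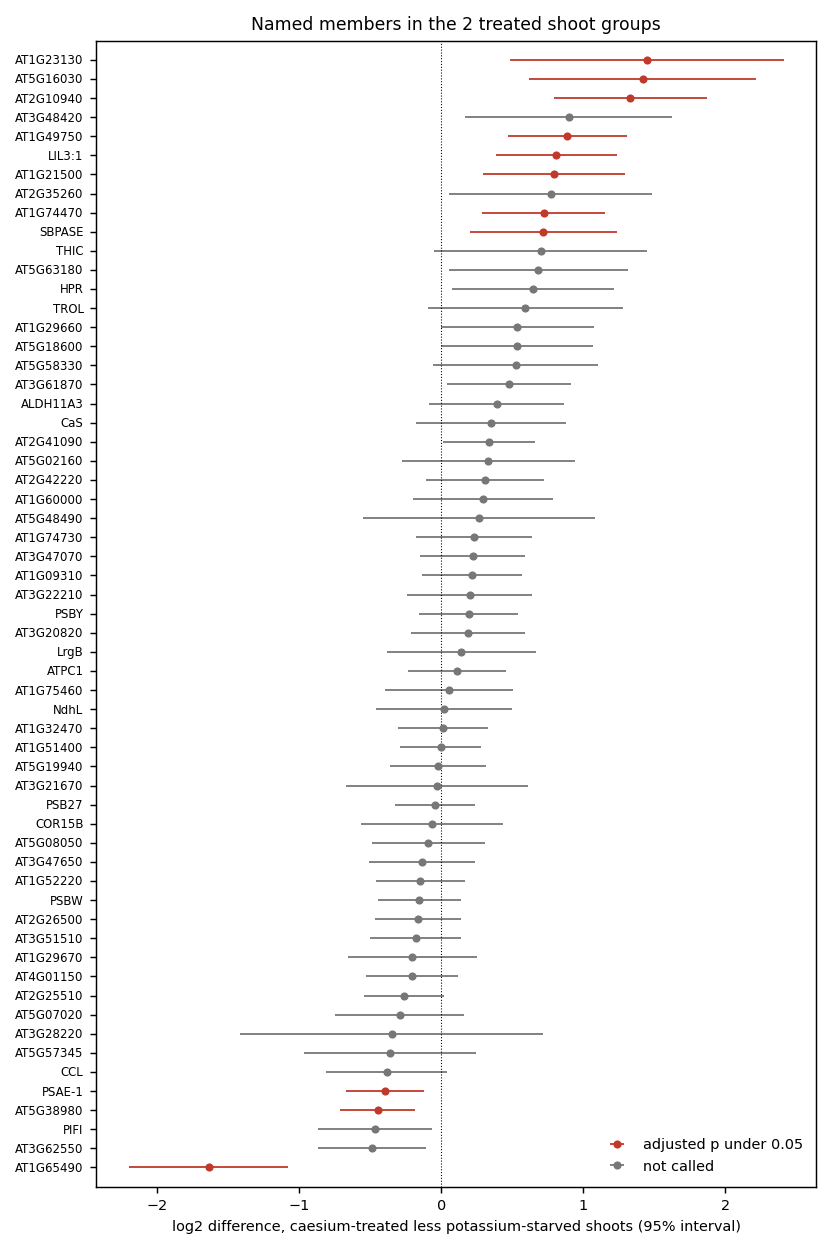
log2 difference of caesium-treated from potassium-starved shoots for 59 named members with its 95% interval, ordered by size. Red marks the 11 called members, 8 to the right and 3 to the left of 0. The 6 members with intervals wider than 2.5 are not drawn.

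In another set of genes the treated groups lay side by side. COR15B (AT2G42530), a cold-induced chloroplast protein gene, had signals of 1041, 658 and 784 in control, 378, 379.7 and 448 in potassium-starved and 491, 296 and 385 in caesium-treated shoots. Treated signals lay below the controls, at -1.02 ± 0.23 (adjusted p = 0.00931) and -1.09 ± 0.23 (adjusted p = 0.0605), and the treatments differed by -0.07 (95% interval -0.57 to 0.43). AT1G75460, a LON-domain protein gene, and AT3G22210 fell by 0.99 and 1.13 under potassium starvation and differed by -0.93 (adjusted p = 0.0674) and -0.93 (adjusted p = 0.0618) under caesium. COR15B, AT1G75460, AT3G22210, PSB27 and AT1G51400 had the smallest p of the named members in that comparison. With the replicate block all 5 were among 16 named members called lower under caesium, where adjusted p was 0.0174 for PSB27 and 0.028 for AT1G51400, and without replicate 2 none was called.

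AT5G38980 went the other way from most members. Its signals were 2051, 2404 and 2363 in control, 2841, 2782 and 2495 in potassium-starved and 2058, 1899 and 1979 in caesium-treated shoots, where the potassium-starved arrays lay above all others, without a call against control (0.25, adjusted p = 0.132), and it was lower under caesium than under potassium starvation by 0.45 (adjusted p = 0.0206). AT2G25510, the brightest named member, had 3510.1, 4259 and 4270.3 in control, 4990.3, 4222 and 4199.9 in potassium-starved and 3328, 3914 and 3948 in caesium-treated shoots, where the caesium-treated arrays lay below the potassium-starved ones (-0.26, adjusted p = 0.151) and both overlapped the controls. The nitrate transporter gene AT3G21670, the RNA-binding protein gene AT1G60000, the universal stress protein gene AT3G62550, CCL and AT2G41090, a calmodulin-like gene, were not called in any of the 3 comparisons of shoots. AT3G28220, of the TRAF-like family, had signals of 561, 311 and 879 in control shoots alone, and its differences of 0.57 and 0.22 lay within that spread. Among the remaining called genes the falls under potassium starvation were 0.84 for the leucine-rich repeat gene AT3G20820, 0.85 for the pectate lyase-like gene AT5G63180, 0.82 for AT3G61870, 1.06 for AT2G35260 and 0.45 for AT3G51510.

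The 5 defence genes were not called in any comparison of shoots, and their replicates spread widely. PDF1.2, a jasmonate-responsive antifungal defensin, had signals of 247, 2008 and 33.2 in control, 51.5, 1692 and 41.4 in potassium-starved and 425, 2462 and 207 in caesium-treated shoots. PDF1.2b (AT2G26020), a close relative whose probe set may share target with it, had 604, 3211 and 145 in control, 201, 2211 and 485 in potassium-starved and 1304, 2965 and 849.8 in caesium-treated shoots. Both were highest on replicate 2 of each group, and standard errors of their log2 differences were 1.64 and 1.07. AT5G03350, the lectin gene, had 229, 1722 and 1499 in control, 551, 1240.1 and 1921 in potassium-starved and 346, 1448 and 1393 in caesium-treated shoots and was lowest on replicate 1 of each group. The defensin-like AT3G05730 had 629, 538 and 407 in control, 149, 699 and 139 in potassium-starved and 473, 206 and 109.5 in caesium-treated shoots, with no replicate high or low throughout. With the replicate block PDF1.2 was higher in caesium-treated than in potassium-starved shoots (1.97, adjusted p = 0.0126), where each caesium-treated array exceeded the potassium-starved array of its own number, and without the block adjusted p was 0.398.

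Of the named calls under potassium starvation, 22 of 36 were kept in all 9 fits without 1 shoot array. After the median shift the falls of AT5G19940, AT5G63180, AT5G48490, CaS, AT5G08050, AT3G51510, AT1G29670 and AT1G32470 were lost. Between the treatments 3 of 11 named calls (AT2G10940, AT1G49750 and AT1G65490) were kept in all 12 fits, and without replicate 2 of all groups 5 were higher and 1 lower. The call of LIL3:1 was kept in 11, of AT1G74470 in 10, of AT5G16030 and AT5G38980 in 9, of AT1G21500 and AT1G23130 in 8, of PSAE-1 in 7 and of SBPASE in 6 of the 12. The call of AT5G38980 was also lost under quantile normalization, and those of AT1G21500 and AT1G23130 after the median shift.

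The pathways around the members were covered thinly, since few of their genes had a named probe set. Of 24 tetrapyrrole synthesis genes 8 were named and 1 of them, AT1G74470, was a member. In potassium-starved shoots 6 of the 8 were lower and 0 higher, among them HEME1 (-1.41), which encodes uroporphyrinogen decarboxylase, and CHLM (-0.94), the Mg-protoporphyrin methyltransferase gene. In all tested probe sets 16.7% were lower. Between the treatments, a comparison whose balance of directions turned with the scaling, 4 of 8 were higher under caesium against 18% of all tested, GSA1, PORB, HEME1 and AT1G74470, at 0.71, 1.21, 1.06 and 0.72, and 0 were called under caesium against control. Of 5 named photorespiration genes 4 were lower in potassium-starved shoots, AT1G11860, the T protein of glycine decarboxylase, by 1.61 and the glycerate kinase gene AT1G80380 by 1.14 besides HPR and AT1G32470. Of 11 listed genes of senescence and chlorophyll breakdown 3 were named, SAG29, SAG101 and WRKY53, and none of the 3 is a chlorophyll breakdown gene. All 3 were higher in potassium-starved shoots, at 5.45, 0.94 and 1.57. Of all tested probe sets 11.4% were higher there. Under caesium they had positive differences of 2.88, 0.61 and 1.15 without a call. The control shoot signals of SAG29 were 9.91, 6.80 and 5.64, under the 40th percentile of those arrays (25.9 to 27.1), so its differences from control rest on a low base. Those of SAG101 were 48.1, 27.0 and 28.5, near that percentile on replicates 2 and 3. SAG29 was lower under caesium than under potassium starvation, by 2.56. Of 3 named photosystem II genes, all members, PSB27 fell under potassium starvation. Of 3 named light-harvesting genes, none a member, LHCB4.1 and LHCB4.2 were lower there, at -0.54 and -0.95. Of 3 named Calvin cycle genes SBPASE and PRK were lower, the latter by 0.95. The named genes in the lists of light harvesting, photosystem I and photosystem II, electron transport, the Calvin cycle, photorespiration, glucosinolates, the clock and senescence were not called under caesium against control either. With the replicate block PSB27, which is in the photosystem II list, was called lower there, as given above, and the genes outside the members were not examined under the block. These lists were chosen with earlier results of these data known.

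The difference between the treatments was compared between shoots and roots in a fit of all 18 arrays. It was called for 14 members, 3 with a higher and 11 with a lower value in shoots than in roots, against 5.58% and 4.17% of all 16397 tested. All 183 members passed the filter through their shoot signals, so the counts are a description. Of the 5 named among them AT2G25510 and AT5G38980 also passed the filter in roots, and AT2G41090, AT1G65490 and AT5G16030 did not. AT2G41090 had signals of 2.01, 7.9 and 2.54 in potassium-starved and 25.4, 39.4 and 29.2 in caesium-treated roots, all 3 of the latter higher. AT2G25510 had 157, 293 and 105 and 574, 613 and 259, where one potassium-starved root array exceeded a caesium-treated one. AT5G16030 and AT1G65490 had root signals between 15.4 and 47.5 in the treated plants, where the treatments overlapped. AT5G38980 had 13.3, 23.8 and 21.3 and 35.6, 31.3 and 27.9, with all caesium-treated root arrays higher, while in shoots they were lower. Its potassium-starved root signals lay under the 40th percentile of their arrays (27.7, 25.9 and 27.9). Without a call, the next smallest p belonged to AT3G48420 (1.71), AT1G21500 (1.02), AT2G10940 (1.22) and AT1G49750 (0.61) among positive and to AT4G01150 (-0.69) among negative interactions. In roots alone, where 86 members passed the filter, 2 unnamed members were called lower under caesium than under potassium starvation and 0 higher, against 2.27% each way of all 14432 tested. Of the 86 differences 72 were positive, with a median of 0.51 against 0.04 over all tested. With array weights 26 of the 86 were called higher and 2 lower, and calls rose over all 14432 tested too, to 1453 higher and 1095 lower. Since low root signals kept the other members out, these values describe the 86 alone.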

How the data were processed

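Signals of 22810 probe sets on 18 ATH1 arrays were used as deposited by the authors. They are linear intensity values from MAS5, Affymetrix's summary of a probe set, per the submitters' processing notes, with no version given. The mean trimmed by 2% at each end was 100.0 on every array, so each array had been scaled to one target. The 64 control probe sets were left out. Precision is limited by 3 arrays per group.

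The log2 signals, with no pseudocount, were fitted in R 4.3.3 with the functions lmFit and eBayes (trend) of limma 3.58.1, on 9 shoot arrays, 9 root arrays, or all 18 for shoots against roots and for interactions. Probe sets had to exceed their array's 40th percentile on at least 3 arrays of the fit. Benjamini-Hochberg adjustment ran over all tested probe sets, and a call was an adjusted p under 0.05. The shoot fit was tested on simulated data for caesium-treated against potassium-starved shoots, and the other fits were not simulated.

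Replicate numbers come from the labels. In shoots, deviations from the group means correlated at 0.17 to 0.56 for every same-numbered pair of arrays, so the numbers pair the shoot samples, while within roots some pairs lay under 0.1. The fit with the number as a block was an alternative, beside other normalizations, filters, weights, samples and choices of members. Calls are from the fit without the block unless the block is named. Under caesium against control 16 named members were called lower with the block and 0 without it. Leaving out replicate 2 of all shoot groups was added after the data were seen.

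Genes named were the 12 brightest, the 10 with the highest ratio, called genes by size (at most 12 in each direction between the treatments and 10 against control, or the 5 smallest p), the 5 smallest p of the interaction in each direction, the 3 nearest each threshold, members of the gene lists and members of role groups of at least 3. Other members named in passing were chosen after their values were seen. The members and lists were chosen with earlier results of these data known. Promoter sequences were not analysed here.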

Additional observations from a re-analysis of the deposited data

Results flagged for a closer look

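For 5 named members the interaction term of the limma fit over all 18 arrays, the difference between caesium-treated and potassium-starved plants in shoots less that in roots, passed the threshold. AT2G41090, AT1G65490 and AT5G16030 entered that fit through their shoot signals and did not pass the filter on low signals in roots, so their root term rests on signals near or under background. AT5G38980 passed that filter, but its potassium-starved root signals all lay under the 40th percentile of their arrays (25.9 to 27.9), so its root term is limited too. AT2G41090, the calmodulin-like gene, had an interaction of -2.83 on the log2 scale (adjusted p = 0.00606). It rests on root signals of 2.01 to 7.90 under potassium starvation and 25.4 to 39.4 under caesium, near or below the 40th percentile of the arrays, and was -0.90 with a pseudocount of 16. For AT1G65490 the interaction was -1.84 (adjusted p = 0.0106), for AT5G38980 -1.18 (adjusted p = 0.0100), for AT2G25510 -1.67 (adjusted p = 0.0375) and for AT5G16030 1.84 (adjusted p = 0.0329). The first 2 of these and AT2G41090 kept their calls in all 18 fits without 1 array, while AT2G25510 kept it in 9 and AT5G16030 in 11. The call of AT2G25510 was also lost under quantile normalization.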

How the results depend on the processing

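In caesium-treated against potassium-starved shoots, members called higher and lower were 27 and 5 as reported, 41 and 1 with quantile normalization, 11 and 23 with the median shift, 20 and 2 without the filter, 49 and 11 with the replicate block, and 26 and 9 with array weights. They were 16 and 2 at a ratio of 64, 20 and 2 when every control array had to pass the thresholds, and 15 and 2 with all 18 arrays in 1 fit. Without replicate 2 of all shoot groups (added after the data were seen) they were 13 and 1, or 13 and 2 with members also chosen without it. Leaving out single arrays gave 9 to 32 higher and 1 to 6 lower. The median of 0.13 was 0.30 with quantile normalization, turned to -0.13 with the median shift, which moved the median of all tested probe sets from 0.16 to -0.11, and was 0.03 to 0.22 without single arrays.

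Potassium-starved against control shoots gave 86 calls, and 49 at a ratio of 64, 57 with all 18 arrays in 1 fit, and 28, 9 and 29 with control replicate 1, 2 or 3 as the one control for members chosen without it, where fewer samples were tested. Leaving out single arrays gave 57 to 89, with medians from -0.60 to -0.50. The median was -0.39 with the median shift. Caesium-treated against control shoots gave 1 call, and 0 with the median shift, 7 with a pseudocount of 16, 0 without the filter, 31 with the replicate block, 53 with array weights (52 of them lower), 0 at a ratio of 64, 6 with all 18 arrays and 2 with only the 6 arrays compared. Calls over all tested probe sets rose too, from 67 higher and 16 lower to 436 and 245 with the block. They were 762 and 434 with array weights and 352 and 128 with all 18 arrays. Without replicate 2 of all groups it gave 0 under either choice of members, and without single arrays 0 to 1. Its median was -0.23 with quantile normalization, -0.47 with the median shift and -0.43 to -0.32 without single arrays.

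Shoots exceeded roots for 105 members in potassium-starved and 104 in caesium-treated plants at a ratio of 64, where fewer members remain, and for 177 to 189 and 176 to 188 without single arrays. The 14 interaction calls were 7 without the filter, at a ratio of 64 or when every control array had to pass, 24 with the replicate block, 27 with array weights and 4 to 38 without single arrays (4 without potassium-starved root replicate 1 and 38 without replicate 2). Over all tested probe sets they moved too, from 915 higher and 683 lower to 1462 and 972 with the block and 1450 and 1035 with array weights. They were 369 and 367 without potassium-starved root replicate 1 and 1114 and 768 without replicate 2. The 2 calls between treated roots became 7 with the replicate block, 28 with array weights (26 of them higher), 1 at a ratio of 64 or when every control array had to pass, and 0 to 5 without single arrays. Calls over all tested probe sets there rose from 328 higher and 327 lower to 893 and 681 with the block and 1453 and 1095 with array weights. Where no construction explains a change, the cause was not tested. Signals near an array's background limit the root comparisons, since 97 of 183 members were under the filter there.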
